A study of Mus musculus with 8 samples.

Results

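The cell cycle and proliferation genes described here are 44 genes, chosen by symbol from a list of cyclins, replication factors, mitotic regulators and proliferation markers. All 44 were found among the 33212 genes of the liver count table, and all 44 were among the 15291 genes with enough counts to be tested. Liver RNA was sequenced in 8 male C57BL/6 mice, 4 Nnmt KO and 4 control, after 8 weeks on an MCD diet. This diet is without methionine and choline and causes fat accumulation and damage in the liver. Nnmt encodes nicotinamide N-methyltransferase, which methylates nicotinamide. The Nnmt KO mice (Nnmt LKO in the sample labels) were Alb-Cre::Nnmt flox/flox, so that the albumin promoter drives Cre and the gene is removed from hepatocytes and other albumin-expressing cells only. The controls are given as WT in the labels and as Nnmt flox/flox in the study's text, which gives them no Cre. No ages were found in the labels or the study's methods, and no group without the MCD diet was part of this comparison, so that all values describe livers already under the diet. The count columns carry the genotype but no mouse number, and the libraries are called a to d within each genotype by their order.

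A cell that leaves rest first makes D-type and E-type cyclins, which relieve the block that the retinoblastoma protein places on E2F factors, and E2F factors turn on the genes for DNA replication. After S phase the factors FOXM1 and B-MYB, with the MuvB complex, turn on the genes for mitosis, and CDK1 with cyclin B starts mitosis. Adult hepatocytes rarely divide, but the liver re-enters the cycle after injury or loss of mass, and in a damaged liver macrophages, stellate cells and bile duct cells can divide as well. Whole-liver RNA does not say which cells carry a transcript, and fewer dividing cells cannot be told apart from less RNA per cell.

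Promoters of these genes carry short motifs that E2F factors and the MuvB complex are known to bind. Of these promoters 4 are shown as examples, which need not be typical of their kind. Cdk1 and Cdc20 are mitotic members, and Mcm5 and Rrm1 are S phase members. The bases lie before the start site of RefSeq (GRCm38.p6), up to 180 bases away, without bases inside the annotated gene, and they read 5′ to 3′ on the strand of the gene. Capitals mark TTTGAA or TTTAAA (the cell cycle homology region, CHR), CCAAT (the NF-Y box) and the E2F sites, spelt TTCCCGC (the first form), TTCGCGC (the second), TTGCCGC (the third) or TTGGCGC (the fourth), each searched on both strands. In Mcm5 the last 2 E2F sites overlap and are printed as 1 run of capitals.
Cdk1 (chr10:69352939-69353092, minus strand): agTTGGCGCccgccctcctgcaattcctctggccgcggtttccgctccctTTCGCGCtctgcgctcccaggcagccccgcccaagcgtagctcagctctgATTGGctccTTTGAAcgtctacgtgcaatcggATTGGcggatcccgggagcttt
Cdc20 (chr4:118437353-118437523, minus strand): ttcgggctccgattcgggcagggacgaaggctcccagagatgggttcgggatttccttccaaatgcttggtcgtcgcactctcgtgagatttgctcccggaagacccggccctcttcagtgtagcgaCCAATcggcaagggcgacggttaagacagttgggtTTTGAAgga
Mcm5 (chr8:75109329-75109508, plus strand): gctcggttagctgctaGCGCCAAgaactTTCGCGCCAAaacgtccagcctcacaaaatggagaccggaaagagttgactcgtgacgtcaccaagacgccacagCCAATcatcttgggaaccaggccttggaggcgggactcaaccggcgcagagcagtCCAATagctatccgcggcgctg
Rrm1 (chr7:102441515-102441694, plus strand): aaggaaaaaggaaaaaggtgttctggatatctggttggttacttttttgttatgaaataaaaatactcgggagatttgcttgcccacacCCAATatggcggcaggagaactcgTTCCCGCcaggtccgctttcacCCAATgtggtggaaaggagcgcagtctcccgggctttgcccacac

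RefSeq promoters, each 250 bases before to 50 bases after a start, were matched for 35 of the 44 members, with 38 promoters in all. Ccnd1, Ccne2, Ccna2, Cdc25c, Foxm1, Aurkb, Kif20a, Tpx2 and Mcm4 had none in the table. A CHR motif was held by 19 of 22 promoters of the mitotic members (86.4%), by 4 of 11 promoters of the replication and nucleotide members (36.4%) and by 27.6% of all 32851 promoters. An E2F site was held by 4 of the 22 mitotic promoters (18.2%) and by 7 of the 11 replication and nucleotide promoters (63.6%), against 9.57% of all promoters. CCAAT was held by 20 of 22 (90.9%) and 9 of 11 (81.8%), against 37.4% of all promoters. CHR and CCAAT occurred together in 18 of 22 mitotic promoters (81.8%) and in 3 of 11 replication and nucleotide promoters (27.3%), against 10.7% of all promoters. The 5 promoters of G1 to S entry genes held a CHR motif in 2, an E2F site in 2 and CCAAT in 2. A match of letters is a description, and binding was not measured.

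Between 75020072 and 87934362 counts were assigned per library, and 3 counts correspond to at most 0.04 CPM (counts scaled to a common library size). All CPM values are scaled by TMM, which corrects for differences in RNA composition between libraries. Its factor was 1.21 for Nnmt KO library a and between 0.876 and 1.06 for the other 7. Nnmt itself was at 31.8, 44.8, 68.9 and 83.0 CPM in the KO libraries and at 112, 224, 134 and 84.9 CPM in the controls. Every KO library lay below every control, with a fitted log2 fold change of -1.28 (SE 0.33, n = 4 against 4), a p of 0.00256 before and 0.123 after adjustment (edgeR). The 10 hepatocyte markers, Alb and Apoa1 among them, summed to between 66678 and 117085 CPM.

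Across all 8 libraries, none of the 44 cell cycle genes differed between Nnmt KO and control livers at an adjusted p under 0.05, by edgeR or by DESeq2. In edgeR, 49 of the 15291 tested genes (0.320%) did, and in DESeq2 513 did. At an unadjusted p under 0.05, 3 members were lower in the KO mice, Ccnd1, Mcm5 and Rrm1, against 7.13% of all tested genes, and 0 were higher, against 5.45%. DESeq2 gave 4 members at an unadjusted p under 0.05, the fourth being Mcm2. The shares of all tested genes at that p are those of edgeR, and the share in DESeq2 was not counted. A count of 3 in 44 is near the background share. The median log2 fold change of the members was -0.08, with 26 lower and 18 higher, and that of all tested genes was 0.02. Rrm1 was the 1 member whose 4 KO libraries all lay below the 4 controls (background 4.81%), and no member had all KO libraries above the controls (background 3.34%).

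**Figure D1:**
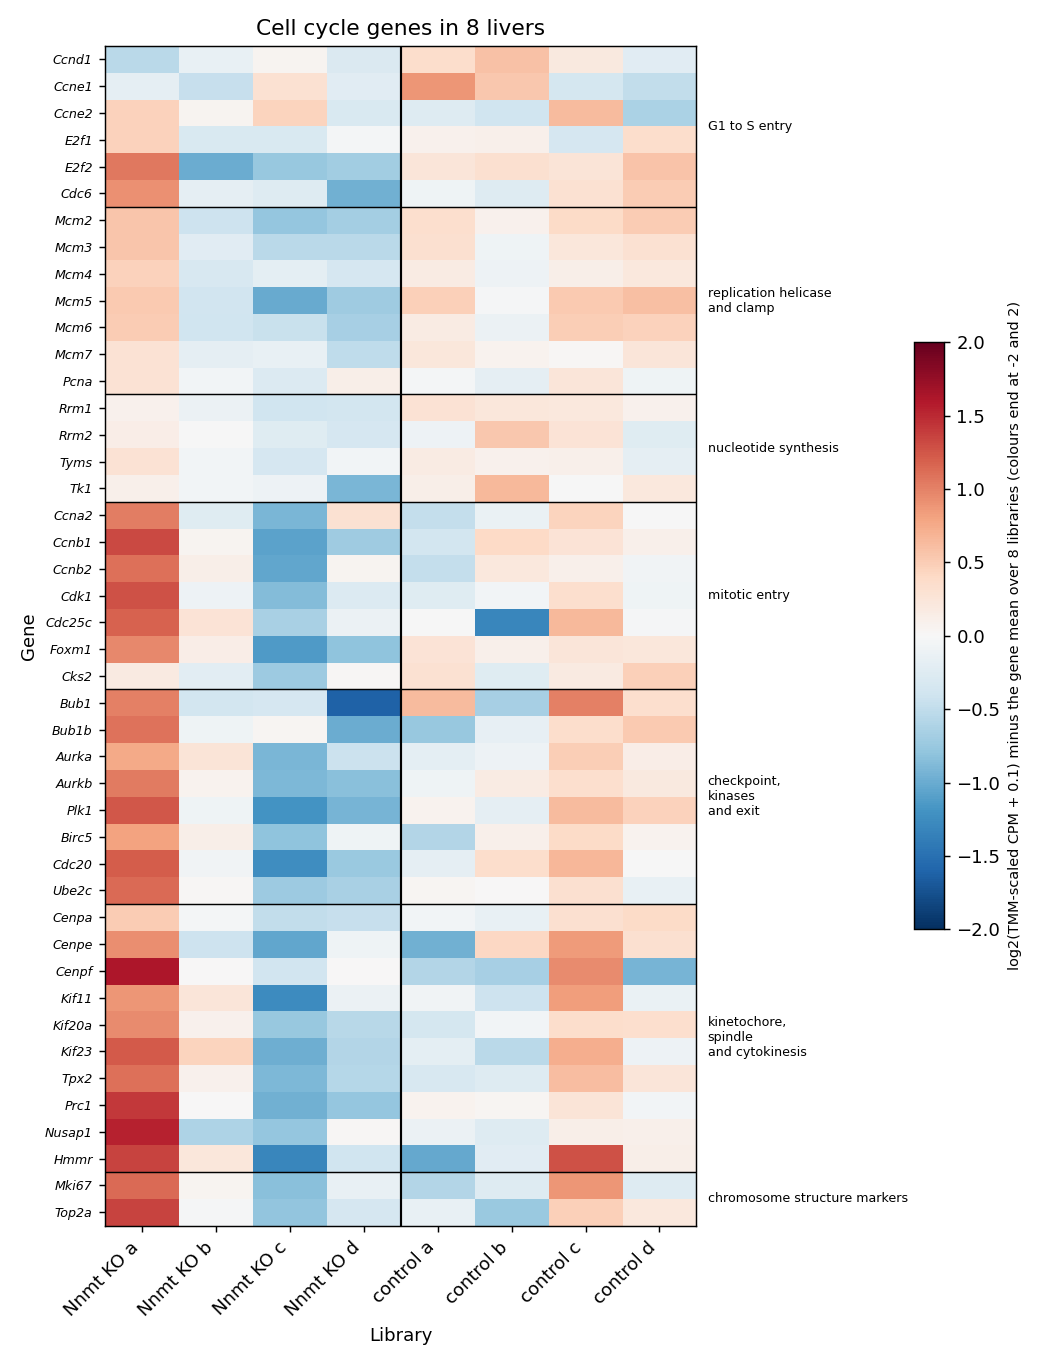
Level of each of the 44 genes (rows, ordered by role) in each of the 8 livers (columns), as log2(TMM-scaled CPM + 0.1) minus the mean of that gene over the 8 libraries; red is above the mean and blue below it. Nnmt KO library a was the highest library for 35 members and library c the lowest for 28, both in the KO group.

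The largest differences lay within the KO group. Nnmt KO library a was the highest of all 8 libraries for 35 of the 44 members (79.5%), and over all tested genes it was the highest for 20.6%. Nnmt KO library c was the lowest of all 8 for 28 members (63.6%), against 8.02% of all tested genes. The median SD of log2 CPM within a genotype was 0.66 for the members and 0.27 for all tested genes. It was 0.76 for the 27 mitotic members and 0.30 for the 11 replication and nucleotide members. Without library a it was 0.41 for the members, 0.24 for all tested genes, 0.48 for the mitotic members and 0.19 for the replication and nucleotide members. These sets also differ in level. Their median percentile among tested genes was 33.3 for the members, 28.8 for the mitotic and 52.0 for the replication and nucleotide members. The part of level in the SDs was not tested. Averaged over the 44 members, each relative to its own mean, the 4 KO libraries stood at 0.85, -0.09, -0.67 and -0.48 on the log2 scale and the controls at -0.07, -0.08, 0.43 and 0.12. The range of the KO mice enclosed that of the controls on both sides.

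**Figure D2:**
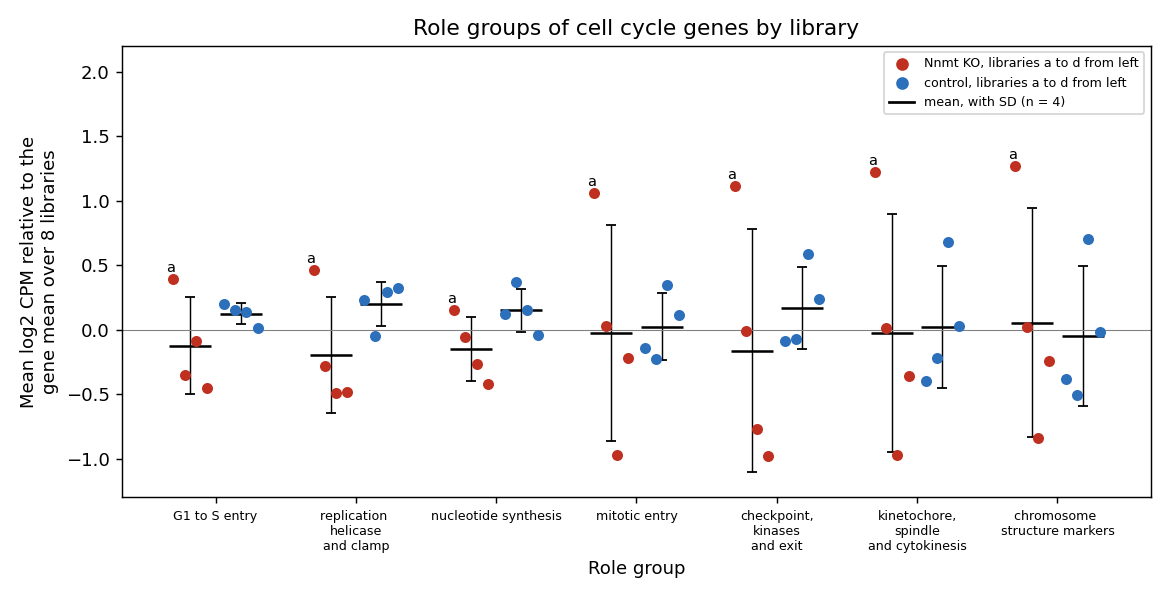
Mean log2 CPM of each role group (x axis), each gene relative to its mean over the 8 libraries (y axis, log2 units), with 1 point per library, the group mean as a black line and the SD over 4 libraries as a bar. Library a is the highest KO point in every role group, and for the kinetochore, spindle and cytokinesis genes it stands at 1.22 while library c stands at -0.97.

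Each library was left out of the fit in turn, and 1 of them decided the outcome. Without Nnmt KO library a, 16 members were lower at an unadjusted p under 0.05, against 7.42% of 15477 tested genes, and 0 were higher, against 5.84%. At an adjusted p under 0.05, Mcm2 and Mcm5 fell, against 0.963% of all tested genes. The median of the members was then -0.45, with 43 of 44 lower, while the median of all tested genes was -0.00. Cell type markers also moved in this fit, and their part was not tested. Of the 10 hepatocyte markers 4 were higher at an unadjusted p under 0.05 (median 0.26). All 9 tested neutrophil markers had negative values (median -0.48, 0 at an unadjusted p under 0.05). Of 10 stellate cell markers 7 had negative and 3 had positive values (median -0.21). At an unadjusted p under 0.05, 1 stellate cell marker was higher and 0 were lower. In 9 members the 3 remaining KO libraries all lay below the 4 controls (background 7.44%), and these were E2f2, Mcm2, Mcm3, Mcm4, Mcm5, Mcm6, Mcm7, Rrm1 and Tk1. Leaving out another library gave between 1 and 4 members at an unadjusted p under 0.05 and medians between -0.11 and 0.13. These were lower in the KO mice except for 1 of the 4 without control c, Cenpf, which was higher (1.54, unadjusted p = 0.0271, adjusted p = 0.3). Library a was the highest of all 8 for 35 of the 44 members, against 20.6% of all tested genes. Leaving it out therefore lowers the KO mean of most members, and the background shares do not carry that selection. The members also varied together between mice, so that these counts describe the fit and are not a test of genotype. Library a was left out as 1 of 8 in turn, and the labels give no reason to doubt it. It had the lowest Nnmt of all libraries, 31.8 CPM, and the log2 fold change of Nnmt was -1.28 with library a and -1.08 without it. The values of library a are kept in every mean ± SD.

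**Figure D3:**
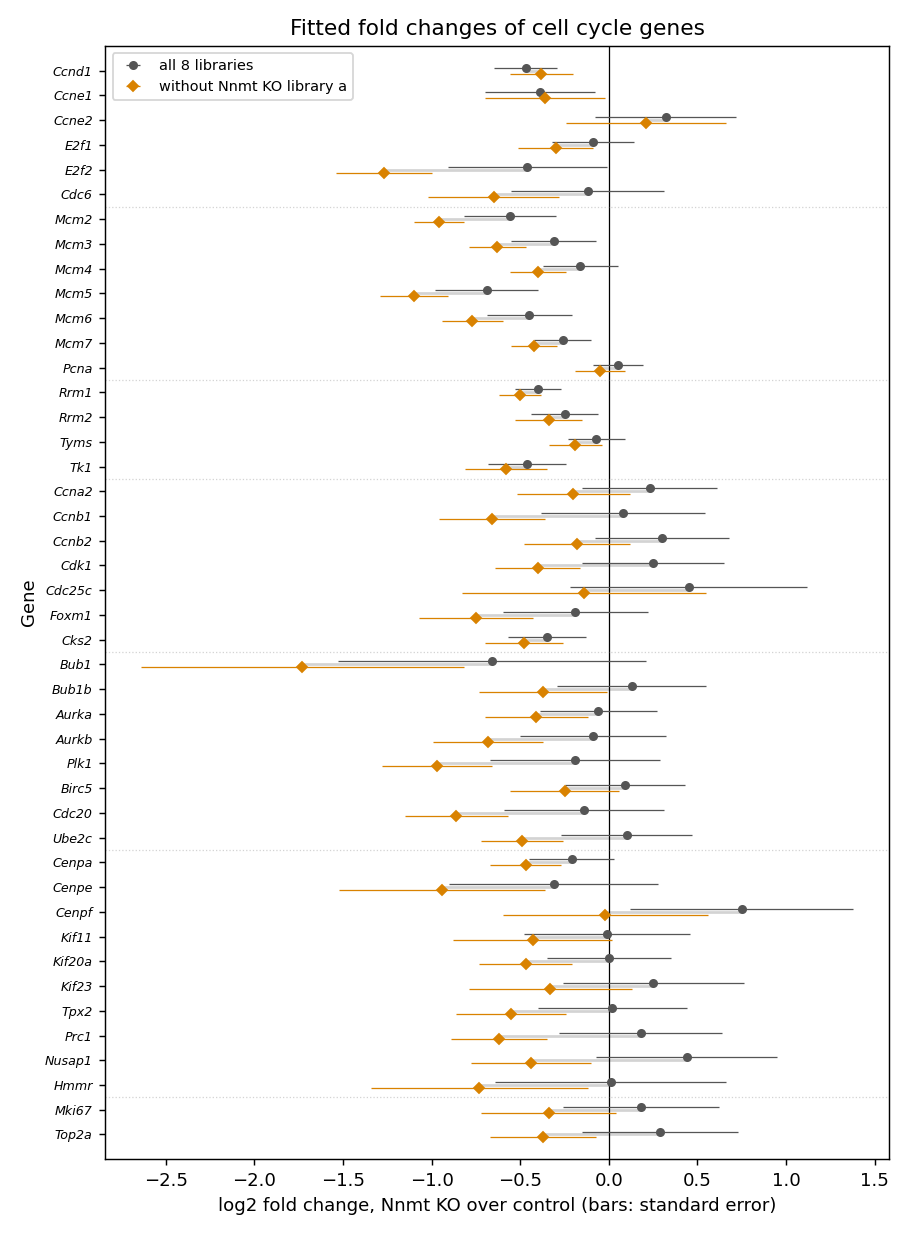
Fitted log2 fold change, Nnmt KO over control, of each of the 44 genes (edgeR, bars show the standard error) with all 8 libraries (grey circles) and without Nnmt KO library a (orange diamonds). With all libraries the points lie on both sides of 0, from -0.69 for Mcm5 to 0.75 for Cenpf, and without library a 43 of 44 lie below 0.

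G1 to S entry was represented by Ccnd1, Ccne1, Ccne2, E2f1, E2f2 and Cdc6. Ccnd1 encodes cyclin D1, which is induced by growth signals and activates CDK4 and CDK6. It lies on chromosome 7 (144929931 to 144939925, minus strand, GRCm38). Ccnd1 was at 249, 327, 374 and 297 CPM in the KO libraries and at 462, 543, 414 and 310 CPM in the controls. The groups overlapped only in that KO libraries b and c exceeded control d, and the KO mean was 312 ± 52.2 CPM against 432 ± 97.5 CPM (SD, n = 4 each), 72.1% of control. The log2 fold change was -0.47 (SE 0.18), with a p of 0.0253 before and 0.311 after adjustment. Unlike most members, Ccnd1 was lowest in KO library a. Of its exon bases, 23.4% overlap a gene on the opposite strand, and whether the counting used strand was not given in the sources used here. Other members have such overlaps too, among them Kif20a (29.3%), Ube2c (22.8%) and Ccne2 (17.4%).

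E2f2 encodes an activating E2F factor and was at 2.77, 0.595, 0.716 and 0.753 CPM in the KO libraries and at 1.53, 1.62, 1.56 and 1.95 CPM in the controls. Library a was above all controls and the other 3 below all of them, and the log2 fold change moved from -0.46 (SE 0.45) to -1.27 (SE 0.27, adjusted p = 0.0537) when library a was left out. Ccne1 and Ccne2, which encode the E-type cyclins that activate CDK2, had log2 fold changes of -0.39 (SE 0.31) and 0.32 (SE 0.40). E2f1, another activating E2F factor, and Cdc6, which helps to load the helicase at origins, had -0.09 (SE 0.23) and -0.12 (SE 0.43). Without library a the values of these 4 genes were -0.36 (SE 0.34), 0.21 (SE 0.45), -0.30 (SE 0.21) and -0.65 (SE 0.37). None of these 5 genes passed an unadjusted p of 0.05 with all libraries.

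The replication helicase genes Mcm2 to Mcm7 encode the 6 subunits of the MCM ring, which is loaded at origins and unwinds DNA. All 6 had a lower KO mean, at 62.0% (Mcm5) to 89.2% (Mcm4) of control. Mcm5 (chromosome 8, 75109569 to 75128439, plus strand) was at 14.9, 7.93, 5.12 and 6.32 CPM in the KO libraries and at 14.4, 10.2, 14.9 and 15.8 CPM in the controls. KO libraries b, c and d lay below every control and library a lay within the control range. The means were 8.56 ± 4.35 and 13.8 ± 2.47 CPM (SD, n = 4 each), with a log2 fold change of -0.69 (SE 0.29), a p of 0.037 before and 0.357 after adjustment.

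In the same group of genes, Mcm2 was at 23.5, 11.9, 9.34 and 9.92 CPM in the KO libraries and at 20.2, 16.9, 20.9 and 22.7 CPM in the controls. Library a was above the controls and the other 3 KO libraries were below all of them, and the log2 fold change was -0.56 (SE 0.26, adjusted p = 0.407). Without library a it was -0.96 (SE 0.14, adjusted p = 0.0182) for Mcm2 and -1.10 (SE 0.19, adjusted p = 0.0302) for Mcm5, that is 51.4% and 46.8% of the control mean in CPM. The other 4 helicase genes had log2 fold changes between -0.77 and -0.40 without library a, with Mcm6 at an adjusted p of 0.0568, Mcm3 at 0.0999, Mcm7 at 0.184 and Mcm4 at 0.317. In each of the 6 helicase genes the 3 remaining KO libraries lay below all 4 controls, against 7.44% of all tested genes. With all libraries the groups overlapped in each of the 6. Library a was the highest of all libraries for Mcm2, Mcm3, Mcm4, Mcm6 and Mcm7, a selection that the background share does not carry.

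Pcna, which encodes the sliding clamp of DNA polymerases, did not share that pattern. It was at 35.2, 27.8, 23.7 and 31.3 CPM in the KO libraries and at 27.9, 25.3, 33.9 and 27.2 CPM in the controls, and the groups overlapped throughout. Its log2 fold change was 0.05 (SE 0.14) with all libraries and -0.05 (SE 0.14) without library a. Per kilobase of exon, the helicase and clamp genes had a median level of 2.80 CPM, above the median of 2.19 CPM of all tested genes, while the kinetochore, spindle and cytokinesis genes had 0.222 CPM.

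The nucleotide synthesis genes had a median within-genotype SD of 0.25 on the log2 scale (0.23 without library a), and all 4 had a lower KO mean. Rrm1, which encodes the large subunit of ribonucleotide reductase, was at 17.1, 14.9, 12.3 and 12.5 CPM in the KO libraries and at 19.8, 18.9, 18.7 and 17.1 CPM in the controls. The groups did not overlap, but KO library a and control d were the same to 3 digits. The KO mean was 14.2 ± 2.26 and the control mean 18.6 ± 1.14 CPM (SD, n = 4 each), with a log2 fold change of -0.40 (SE 0.13), a p of 0.0107 before and 0.229 after adjustment. Rrm2, the small subunit, had -0.25 (SE 0.19) and Tyms, thymidylate synthase, had -0.07 (SE 0.16). Tk1, thymidine kinase, was at 8.65, 7.72, 7.52 and 4.25 CPM in the KO libraries and at 8.76, 12.7, 8.05 and 9.32 CPM in the controls, with a log2 fold change of -0.46 (SE 0.22, unadjusted p = 0.0613). Library a was the highest KO library for Tk1 but lay inside the control range, and the log2 fold change was -0.58 (SE 0.23) without it.

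The mitotic entry genes varied widely between the KO mice. Cdk1 (chromosome 10, 69335146 to 69352938, minus strand), the kinase that starts mitosis, was at 7.72, 2.92, 1.68 and 2.57 CPM in the KO libraries and at 2.63, 3.01, 3.97 and 2.96 CPM in the controls. Library a was 3.23 times the mean of the other 3 KO libraries and 2.46 times the control mean. The KO mean was 3.72 ± 2.72 and the control mean 3.14 ± 0.579 CPM (SD, n = 4 each), and the log2 fold change was 0.25 (SE 0.40, adjusted p = 0.837). Ccnb1, which encodes the cyclin B1 partner of CDK1, was at 7.21, 2.92, 1.28 and 1.67 CPM in the KO libraries and at 2.16, 3.76, 3.42 and 3.03 CPM in the controls. Its log2 fold change turned from 0.08 (SE 0.46) to -0.66 (SE 0.30, unadjusted p = 0.0525) without library a.

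Cks2, a small subunit that binds CDK1, had the smallest p of this group and was at 8.43, 6.38, 4.41 and 7.55 CPM in the KO libraries and at 9.15, 6.26, 8.42 and 10.3 CPM in the controls. Its groups overlapped, its log2 fold change was -0.35 (SE 0.22, unadjusted p = 0.13) with all libraries and -0.48 (SE 0.22, unadjusted p = 0.0471, adjusted p = 0.368) without library a, and it was the 1 gene of the 7 in which library a was not the highest of all libraries. Foxm1, the transcription factor of the mitotic program, was at 3.66, 2.01, 0.776 and 1.0 CPM in the KO libraries and at 2.23, 1.97, 2.17 and 2.16 CPM in the controls. The SD of Foxm1 was 1.31 CPM in the KO group and 0.114 CPM in the controls, and its log2 fold change was -0.19 (SE 0.41) with all libraries and -0.75 (SE 0.32, unadjusted p = 0.037, adjusted p = 0.339) without library a. Ccna2 (cyclin A2), Ccnb2 (cyclin B2) and Cdc25c, the phosphatase that activates CDK1, had log2 fold changes of 0.23 (SE 0.38), 0.30 (SE 0.38) and 0.45 (SE 0.67), and library a was 2.39, 2.54 and 3.0 times the mean of the other KO libraries. Without library a the sign of all 3 turned, to -0.20 (SE 0.32), -0.18 (SE 0.30) and -0.14 (SE 0.69).

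Among the checkpoint and kinase genes, Bub1, which encodes a spindle checkpoint kinase, had the smallest p and the fewest counts. It was at 0.514, 0.136, 0.143 and 0 CPM in the KO libraries and at 0.374, 0.0924, 0.518 and 0.285 CPM in the controls. The value of 0 allows up to 0.04 CPM at the depth of library d, counting error alone considered, and the log2 fold change of -0.66 (SE 0.87, unadjusted p = 0.467) was within its error. It was -1.73 (SE 0.91, unadjusted p = 0.0822) without library a and -0.26 without library d. Plk1, the polo-like kinase, was at 7.11, 2.76, 1.23 and 1.49 CPM in the KO libraries and at 3.09, 2.60, 4.61 and 4.07 CPM in the controls. Cdc20, which activates the anaphase-promoting complex, was at 15.2, 6.17, 2.69 and 3.86 CPM in the KO libraries and at 5.75, 8.29, 10.4 and 6.44 CPM in the controls. In both genes library a was above every control and libraries c and d below every control, and the log2 fold changes went from -0.19 (SE 0.48) to -0.97 (SE 0.31) for Plk1 and from -0.14 (SE 0.45) to -0.86 (SE 0.29) for Cdc20 without library a. Their adjusted p-values were then 0.196 and 0.215. Aurkb, the kinase of the chromosomal passenger complex, went from -0.09 (SE 0.41) to -0.68 (SE 0.31). Bub1b, Aurka, Birc5 (survivin, also of the passenger complex) and Ube2c, the ubiquitin-conjugating enzyme of the anaphase-promoting complex, had log2 fold changes between -0.06 and 0.13 with all libraries and between -0.49 and -0.25 without library a, none at an unadjusted p under 0.05.

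All 10 kinetochore, spindle and cytokinesis genes were highest in Nnmt KO library a, and 9 were lowest in library c. Cenpf, which encodes a large kinetochore protein, was at 1.87, 0.545, 0.394 and 0.544 CPM in the KO libraries and at 0.326, 0.304, 1.13 and 0.238 CPM in the controls. Here 1 mouse of each genotype stood apart, KO library a and control c, and the log2 fold change of 0.75 (SE 0.63, unadjusted p = 0.257) was -0.02 (SE 0.58) without the first. Cenpa, the centromeric histone, went from -0.21 (SE 0.24) to -0.47 (SE 0.20) and Prc1, which bundles microtubules at the midzone, from 0.18 (SE 0.46) to -0.62 (SE 0.27). Both were then at an unadjusted p under 0.05, with adjusted p-values of 0.346 and 0.357. The other 7 were Cenpe, Kif11, Kif20a, Kif23, Tpx2, Nusap1 and Hmmr, motor proteins and microtubule-binding proteins of the spindle. Their log2 fold changes ran from -0.31 for Cenpe to 0.44 for Nusap1 with all libraries and from -0.94 to -0.33 without library a. Hmmr had the largest ratio of library a to library c of all 44 members, at 2.11, 0.917, 0.251 and 0.558 CPM, and a was 8.42 times c.

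Mki67 and Top2a, often read as markers of proliferating cells, followed the mitotic genes. Mki67, which coats mitotic chromosomes, was at 5.06, 2.33, 1.22 and 2.02 CPM in the KO libraries and at 1.46, 1.87, 4.22 and 1.87 CPM in the controls. Top2a, DNA topoisomerase II alpha, was at 9.29, 3.54, 2.03 and 2.83 CPM in the KO libraries and at 3.21, 2.09, 5.05 and 4.15 CPM in the controls. The highest mouse of each genotype, KO a and control c, was the same for both genes. The log2 fold changes were 0.18 (SE 0.44, adjusted p = 0.9) and 0.29 (SE 0.44, adjusted p = 0.824), and without library a they were -0.34 (SE 0.38) and -0.37 (SE 0.30).

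Other genes of the pathway were read from the same fit. Of the 10 CDK inhibitors and pocket proteins, which hold the cycle back, 8 had a positive and 2 a negative log2 fold change. Cdkn1a, which was higher, was the 1 gene of the 10 at an unadjusted p under 0.05. Of all tested genes, 5.45% were higher and 7.13% lower at that p. Cdkn1a, which encodes the CDK inhibitor p21 and is a known target of p53, was at 92.5, 87.4, 92.9 and 89.7 CPM in the KO libraries and at 25.0, 68.0, 60.8 and 36.8 CPM in the controls. All 4 KO mice, library a included, lay above all 4 controls and within a narrow range. The means were 90.6 ± 2.58 and 47.7 ± 20.1 CPM (SD, n = 4 each), with a log2 fold change of 0.93 (SE 0.25), a p of 0.00384 before and 0.15 after adjustment. Ccng1, encoding cyclin G1 and also a p53 target, had 0.50 (SE 0.18, adjusted p = 0.28).

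Of 13 other cyclins, CDKs and their regulators, 12 were tested. Of these, Wee1 and Cdk4 were lower at an unadjusted p under 0.05, against 7.13% of all tested genes, and Ccng1 was higher, against 5.45%. Wee1, the kinase that restrains CDK1, was at 2.91, 3.08, 2.63 and 2.30 CPM in the KO libraries and at 6.69, 5.56, 4.16 and 3.52 CPM in the controls, without overlap, with a log2 fold change of -0.87 (SE 0.22, adjusted p = 0.12). Cdk4, the partner of cyclin D1, had -0.23 (SE 0.09, adjusted p = 0.333). Of 15 other E2F and MuvB factors, Lin9, a MuvB subunit, was lower at an unadjusted p under 0.05 (-0.79, SE 0.32), and 0 were higher. A count of 1 in 15 is near the share of all tested genes.

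Of 30 other replication genes, 4 were lower at an unadjusted p under 0.05 with all libraries, namely Rfc5, Fen1, Cdt1 and Rpa2, and 0 were higher. The share of all tested genes lower at that p was 7.13% with all libraries and 7.42% without library a. The number of lower replication genes was 10 without library a. Cdt1, the origin licensing factor that works with Cdc6, then had -0.91 (edgeR, adjusted p = 0.0495), and with all libraries -0.60 (edgeR, adjusted p = 0.34). As for the members, the counts and calls without library a describe the fit and are not a test of genotype. Library a was the highest of all libraries for 9 of the 30, and their median log2 fold change was -0.23 with all libraries and -0.41 without library a. Of 50 other mitotic genes, Cenpm, Cenpn, Spc24 and Cks1b were lower at an unadjusted p under 0.05 with all libraries and 0 were higher, a share near that of all tested genes, and 11 were lower without library a. The median of the mitotic list was 0.14 with all libraries, with library a the highest for 37 of the 50, and -0.33 without it.

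Markers of other cell types moved with library a, and their part in these results was not tested. Of all tested genes, 20.6% were highest in library a. In library a the hepatocyte markers had their lowest sum, 66678 CPM against 78272 to 117085 in the other libraries, and 0 of 10 were highest there. The hepatic stellate cell and myofibroblast markers, Col1a1 and Acta2 among them, summed to 701 CPM in library a, against 294 to 361 in the other KO libraries and 226 to 392 in the controls, and 7 of 10 were highest there. The collagen genes Col3a1, Col1a2 and Col1a1 held 231, 113 and 106 of the 701 CPM. Des, Rgs5 and Reln were highest in another library. The cholangiocyte markers summed to 315 CPM, against 111 to 197 and 74.8 to 193 CPM, also with 7 of 10 highest in library a. Spp1 alone held 243 of the 315 CPM. Macrophage and Kupffer cell markers summed to 972 CPM in library a, against 467 to 517 CPM in the other KO libraries and 416 to 1060 CPM in the controls, and 2 of the 9 found in the table were highest there. Gpnmb alone held 485 of the 972 CPM in library a and 584 of the 1060 CPM in control d.

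Of the 5 remaining lists, 3 had their highest sum in library a, and 20.6% of all tested genes were highest there. Neutrophil markers summed to 27.9 CPM in library a, against 9.79 to 15.4 and 11.9 to 24.7 CPM, with 6 of 10 highest there and Ly6g at 0 in every library. Csf3r held 11.0 and S100a9 held 9.05 of the 27.9 CPM. T and NK cell markers summed to 12.4 CPM, against 9.25 to 12 and 7.32 to 8.78 CPM, with 3 of 10 highest there. Il2rb alone held 5.03 of the 12.4 CPM, and its groups overlapped. In this sum every KO library was above every control, which held for 3.34% of all tested genes taken singly. Of the 10 markers, 9 had a positive and 1 a negative log2 fold change, and cell numbers were not measured. B and plasma cell markers summed to 7.39 CPM, against 4.88 to 5.61 and 4.53 to 5.79 CPM, with 2 of the 9 found in the table highest there. Cd22 alone held 4.9 of the 7.39 CPM. The endothelial sum, 254 CPM, and the erythroid sum, 731 CPM, lay inside the control ranges of 199 to 369 and 652 to 1034 CPM, with 0 of 10 and 2 of 9 markers highest in library a.

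**Figure D4:**
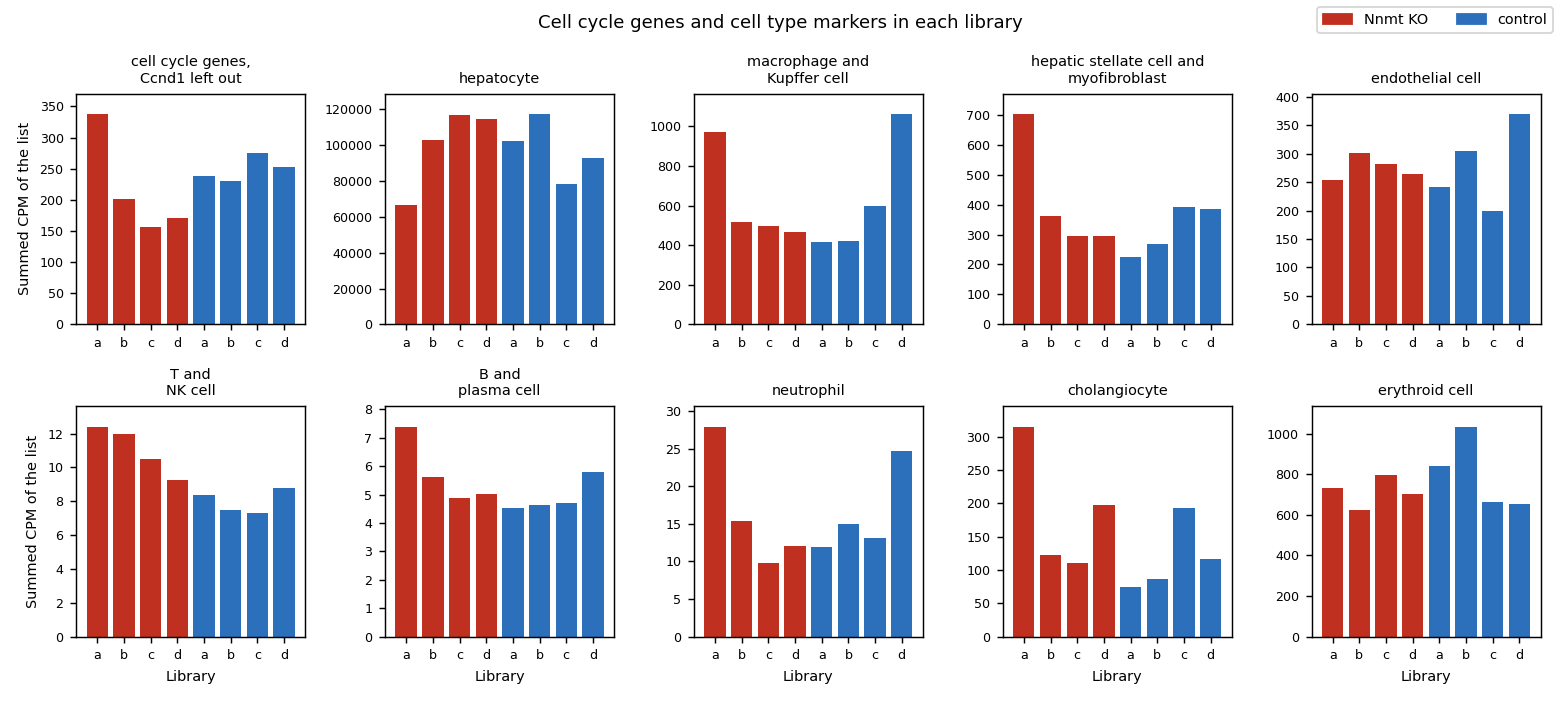
Summed TMM-scaled CPM (y axes, each starting at 0) of 43 cell cycle genes without Ccnd1, which was far above the others in CPM, and of the marker genes of 9 cell types, in libraries a to d of Nnmt KO (red) and control (blue). In KO library a the cell cycle, stellate cell and cholangiocyte sums are the highest of the 8 libraries, at 337, 701 and 315 CPM, and the hepatocyte sum is the lowest.

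Chromosome 7 holds 6 of the members, Ccnd1, Ccne1, Rrm1, Plk1, Prc1 and Mki67. Their median log2 fold change was -0.29 against -0.06 for the other 38 members, and the median of all 1154 tested genes of chromosome 7 was -0.14 against 0.03 for the genes of other chromosomes. Ccnd1 and Rrm1, 2 of the 3 members at an unadjusted p under 0.05, lie there, and so does Wee1. Without library a the members of chromosome 7 and the others had nearly the same median, -0.44 and -0.45, and 13 of the 38 others were lower at an unadjusted p under 0.05. The median of all genes of chromosome 7 was still lower in that fit, -0.16 against 0.01 for the genes of other chromosomes. The part of that shift in the values of Ccnd1, Rrm1 and Wee1 was not tested.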

How the data were processed

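RNA-seq of liver from 4 Nnmt KO and 4 control mice was used. The authors deposited raw counts for each gene as whole numbers. The study's methods name HISAT2 for alignment and quantification, and the submitters' processing notes also name StringTie and the build mm10. Versions, annotation and strand setting were not given in the sources used here. The methods name a KAPA kit and the labels a NEBNext kit. Each count column names a genotype, and 0 columns were left out.

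Counts were filtered by filterByExpr (minimum count 10), scaled by TMM and tested by the quasi-likelihood test of edgeR 4.0.16 in R 4.3.3, with genotype as the only term and Benjamini-Hochberg adjustment over all tested genes. DESeq2 1.42.0, the study's tool, was an alternative. Scripts were tested on simulated data. For library scores, CPM was log2-transformed with 2 as the prior count. Positions, exon lengths and overlaps came from GENCODE M21 (GRCm38, the same assembly as mm10), and promoters from RefSeq (GRCm38.p6). Library totals, 75020072 to 87934362, set the counting error, and every test rests on 4 libraries per genotype, taken as 1 mouse each. The labels number the samples without naming separate animals, and if any share one, the p-values measure only the spread between these samples.

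The members, role groups, pathway lists and markers were chosen with earlier results of these data known. Values in every library are given for members at an unadjusted p under 0.05, the member with the smallest p in each role group, and Mki67, Top2a, Cdk1, Ccnb1, Mcm2, Pcna and Ccnd1. Pathway genes are named at an unadjusted p under 0.05, at most 5 a list. E2f2, Mcm3, Mcm4, Mcm6, Mcm7, Tk1, Foxm1, Plk1, Cdc20, Aurkb, Cenpa, Prc1, Hmmr, Gpnmb and Spp1 were chosen after their values were seen. So were the markers Cd22, Il2rb, Csf3r, S100a9, Col1a1, Col1a2, Col3a1, Des, Rgs5 and Reln. The alternatives were other scalings, DESeq2, no filter, the study's limits and each library left out in turn.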

Additional observations from a re-analysis of the deposited data

Results flagged for a closer look

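The values of each genotype were examined for 1 library far from the other 3, by Dixon's ratio at its 95% critical value. Of 98 groups examined, 7 stood out, where chance alone gives about 1 in 20, or 4.9. In Nnmt KO library a, 5 values were far above those of the other 3 KO libraries. E2f2 was at 2.77 CPM against 0.595 to 0.753 CPM, Mcm4 at 6.14 against 3.46 to 3.82 CPM, Mcm6 at 19.2 against 8.49 to 10.2 CPM and Cenpf at 1.87 against 0.394 to 0.545 CPM. The TMM factor of that library was 1.21 against 0.953 to 0.977. In control c, Cenpf was at 1.13 CPM while the other controls had 0.238 to 0.326 CPM, and Mki67 was at 4.22 CPM while they had 1.46 to 1.87 CPM.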

How the results depend on the processing

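Precision was limited by 4 mice per genotype, with a median SD within genotypes of 0.76 on the log2 scale for the mitotic members. No paired analysis was possible because the count columns carry no mouse number. The 49 genes called over all tested genes became 30 with DESeq2's size factors, 22 with library totals only, 513 with DESeq2's Wald test, 8 without the filter, 266 at an unadjusted p under 0.05 with at least a 2-fold change, and 6 to 149 with a library left out. The members called stayed at 0 except for 2 without Nnmt KO library a, so that leaving out 1 library gave 0 to 2. At an unadjusted p under 0.05 the 3 members became 1 with library totals only and 1 to 16 with a library left out. They were 16 without KO library a, 1 without KO library d or control a, and 13 without KO library a and chromosome 7. The 1 member without overlap became 0 with library totals or DESeq2's size factors and 1 to 9 with a library left out (9 without KO a, 3 without control c, of which 1 was higher, and 2 without control d). The median of the members ran from -0.45 to 0.13 and the genotype difference of the library score, -0.20, from -0.51 to -0.01. Of 288 refits of 24 named genes, 241 kept both direction and side of an unadjusted p of 0.05. They include Mcm5 without KO library a, whose adjusted p went from 0.357 to 0.0302. In 19 refits the gene changed sign. Without KO library a these were Ccnb1 (-0.66), Cdk1 (-0.40), Cenpf (-0.02), Mki67 (-0.34), Pcna (-0.05), Prc1 (-0.62) and Top2a (-0.37). Without KO library c they were Aurkb (0.14), Cdc20 (0.13), Foxm1 (0.06) and Plk1 (0.08), and without KO library d Aurkb (0.13), Cdc20 (0.06), Foxm1 (0.01) and Plk1 (0.04). With library totals only they were Aurkb (0.04) and Cdc20 (0.01), without control a Ccnb1 (-0.03), and without control c Cdc20 (0.03). With a library left out, these genes ran from -0.68 to 0.14 (Aurkb), -0.66 to 0.35 (Ccnb1), -0.86 to 0.13 (Cdc20), -0.40 to 0.49 (Cdk1), -0.02 to 1.54 (Cenpf), -0.75 to 0.06 (Foxm1), -0.34 to 0.62 (Mki67), -0.05 to 0.14 (Pcna), -0.97 to 0.08 (Plk1), -0.62 to 0.44 (Prc1) and -0.37 to 0.53 (Top2a). The cause was not tested. Ccnd1 lost its unadjusted p under 0.05 without KO a, KO d, control a or control b, Rrm1 with library totals only, and Mcm5 with library totals and in 6 of the 8 refits with a library left out. Nnmt stayed lower under every alternative run, from -1.52 to -0.94. The block alternative was not run. Alternatives that leave out chromosome 7, library a for the overlap count or libraries for the score were chosen after seeing the data.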
